A study of Rattus norvegicus with 12 samples.

Results

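Per1 and Klf9 are both known as early targets of glucocorticoid hormone, and both are tied to the circadian clock. Their positions in the gene table of this series hold 8 assembled genes, 3 at Per1 and 5 at Klf9, of 58341 assembled genes in all. An assembled gene is an entry that the authors' software built from the reads, and several entries can share the bounds of 1 locus. Members were chosen by position, as every entry whose locus is chromosome 10, 55681484 to 55697733 (Per1), or chromosome 1, 240907986 to 240934957 (Klf9). Both are rn6 positions. The 2 positions themselves were selected on their deposited FPKM values and q in this same contrast, so those values are given as a description and nothing below tests them anew.

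RNA-seq was run on the hippocampus of male, 8 weeks old Sprague-Dawley rats, all of them adrenalectomized, which removes the main source of circulating corticosterone. One group of 6 rats was given 300 µg/kg corticosterone and the other 6 were given vehicle, and tissue was taken after 1 h. Cortisone is written in the source names of the treated group, but the titles and the protocol have corticosterone, and the latter is used here. Each group enters the table as 1 pooled value per entry, in FPKM (fragments scaled for transcript length and sequencing depth), so the spread between rats is not known and no SD can be given. Depth per rat is unknown.

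Corticosterone is the main glucocorticoid of the rat. It binds the glucocorticoid receptor and the mineralocorticoid receptor, both present in the hippocampus, and the bound receptors regulate genes by binding DNA or other factors. Per1 encodes PERIOD1, a part of the repressing arm of the core clock, which holds back the activators CLOCK and BMAL1. Klf9 encodes a Krüppel-like zinc finger factor that binds GC-rich DNA, responds to thyroid hormone as well as to glucocorticoids, and has been studied in the maturation of hippocampal neurons.

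No entry of the table carries a gene symbol, so the names rest on position alone, and the labelled tissue could not be checked against cell type markers. The Per1 locus spans 16250 bp in the table, and RefSeq's Per1 gene is 14803 bp long in another rat assembly, GRCr8. For Klf9 the span is 26972 bp and the RefSeq length 24996 bp. In GRCr8 the protein-coding gene before Per1 is Vamp2, 4235 bp long and 2344 bp away. In the table, the nearest locus before the Per1 position is 4002 bp long and 2016 bp away. The loci after the genes matched the annotation less well. Hes7, the next protein-coding gene after Per1 in GRCr8, is 4806 bp long and 9166 bp away, while the next locus of the table is 23876 bp long and 14304 bp away. After Klf9, the annotation has Smc5, 69784 bp long and 44252 bp away, while the table has a short locus after 52 bp and then one of 97566 bp at 13755 bp. The neighbouring loci were therefore given no names. The GRCr8 annotation also places LOC134485213, a gene on the opposite strand, across the first bases of Klf9. The sources used here do not say whether the authors counted by strand, so reads of such a pair may not have been told apart.

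For Klf9, the 250 bases before the RefSeq start are shown because they let a reader look for clock and hormone receptor motifs next to the gene that had the higher level of the pair. They lie at chr1:230126396-230126645 of GRCr8, plus strand, and capitals mark the matches to the motifs searched.
Klf9: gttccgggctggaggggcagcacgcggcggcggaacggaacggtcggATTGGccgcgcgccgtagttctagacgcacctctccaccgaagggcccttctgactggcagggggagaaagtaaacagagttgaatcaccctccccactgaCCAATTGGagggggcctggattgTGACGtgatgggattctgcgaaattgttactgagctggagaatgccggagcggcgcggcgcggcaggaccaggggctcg
The search covered both strands for CACGTG (the E-box bound by CLOCK and BMAL1), AGAACA (found within glucocorticoid receptor sites), TGACG (found within cAMP response elements), CCAAT and GGGCGG (a GC box). TGACG occurs 1 time, its first base 79 bases before the start, and 18.2% of 33469 RefSeq promoter windows of 250 bases hold it. CCAAT occurs 3 times, with a pair of the matches overlapping on opposite strands, and 34.0% of the windows hold it. The letters CACGTG are not in this window and are in 5.59% of all windows, AGAACA is likewise absent here and present in 17.5%, and the same holds for GGGCGG, present in 30.5%. For Per1, the start that RefSeq's window leads up to lies 5374 bases inside the gene, so that window is not shown as a promoter.

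At both positions the most abundant entry was higher with corticosterone and was called different, meaning a deposited q of 0.05 or less. The Per1 entry, XLOC_006522, had 6.44 FPKM with vehicle and 10.1 FPKM with corticosterone, a 1.56-fold increase (log2 fold change 0.64, p = 5e-05, q = 0.0165 in the authors' deposited table). The Klf9 entry, XLOC_000762, had 20.9 FPKM with vehicle and 25.6 FPKM with corticosterone, a 1.22-fold increase (log2 fold change 0.29, p = 5e-05, q = 0.0165 in the authors' deposited table). The clock repressor therefore had the larger ratio, and the zinc finger factor the higher level in both groups, 3.25 times that of Per1 with vehicle and 2.54 times with corticosterone. Whether the 2 ratios differ could not be tested from 1 value per group. In bulk tissue, a change in the share of cells that hold a transcript and a change in its amount per cell cannot be told apart.

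Every one of the 8 entries had a higher value with corticosterone, but only the most abundant entry of each locus was called, 2 of 8. Among all 42839 tested entries, 148 were called, or 0.345%, and 116 were called higher, or 0.271%. Since the rule was set with this contrast known, nothing is read from the members' count. All 8 had been tested, so no member was lost to the authors' filter on low values.

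At the Per1 position, XLOC_008525 had 1.18 FPKM with vehicle and 2.39 with corticosterone, 2.03-fold, with p = 0.0375 and q = 0.999 in the authors' deposited table. The sparsest member, XLOC_008524, had 0.53 FPKM with vehicle and 1.76 with corticosterone, 3.31-fold, with p = 0.0197 and q = 0.999 by Cuffdiff in the authors' deposited table. This was the largest ratio among the 8, at the lowest level. Relative to the most abundant Per1 entry, these 2 stood at 18.3% and 8.28% of its level with vehicle and at 23.7% and 17.5% with corticosterone.

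At the Klf9 position, the 4 less abundant entries lay close together, between 2.24 and 3.26 FPKM with vehicle and between 5.00 and 6.08 FPKM with corticosterone. XLOC_005649 had 3.26 and 6.08 FPKM, 1.86-fold. XLOC_005650 had 2.90 and 5.19 FPKM, 1.79-fold. None of the 4 was called, and their values with corticosterone were all above their values with vehicle. XLOC_005648 had 2.31 and 5.28 FPKM, 2.28-fold, with p = 0.0303 and q = 0.999 in the authors' deposited table. XLOC_005651 had 2.24 and 5.00 FPKM, 2.23-fold, and a p of 0.411 in the authors' deposited table. Nearly equal ratios at nearly equal levels thus carried p-values that differ widely. The p-values of the other 2 were 0.105 and 0.205 in that deposited table.

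**Figure D1:**
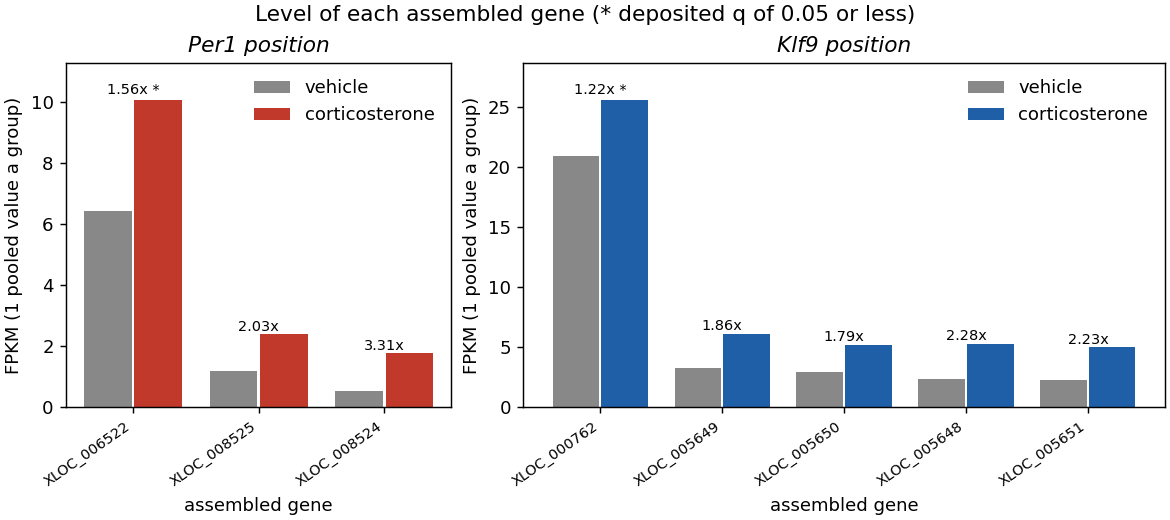
Level in FPKM (vertical axis, 1 pooled value a group) of the 3 assembled genes at the Per1 position and the 5 at the Klf9 position, with vehicle in grey and corticosterone in colour. The number over each pair is the ratio of the 2 bars, and a star marks a deposited q of 0.05 or less. All 8 coloured bars are taller, the stars stand over the most abundant entries at 1.56-fold and 1.22-fold, and the unstarred ratios run from 1.79 to 3.31.

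Summed over a locus, the less abundant entries weighed differently at the 2 genes. The 2 at Per1 added up to 1.71 FPKM with vehicle and 4.15 FPKM with corticosterone, a difference of 2.44 FPKM, against 3.63 FPKM for the most abundant entry. The 4 at Klf9 added up to 10.7 FPKM with vehicle and 21.5 FPKM with corticosterone, a difference of 10.8 FPKM, against 4.70 FPKM for the most abundant entry. At Klf9, then, the difference in FPKM of the uncalled entries together exceeded that of the called one. FPKM is scaled by the length of each entry, so these sums do not count fragments. With all entries of a locus summed, the ratio was 1.74 at Per1 and 1.49 at Klf9.

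For the less abundant entries the median log2 fold change was 1.37 at Per1 and 1.03 at Klf9, which exceeded that of the most abundant entry by 0.73 at both. In the table, 29 loci have their most abundant tested entry called higher and further tested entries with a fold, and their median for this excess was 0.48. The less abundant entries behind each value numbered from 1, at many of these loci, to 41. Per1 had 2 and Klf9 had 4. Ranked from the largest excess, Klf9 was 8 and Per1 was 10 of the 29. Over all 4775 loci with more than 1 tested entry the median was -0.020. The excess keeps its sign, and those loci include higher and lower ones, which can cancel. That median therefore cannot show whether the excess is particular to loci called higher.

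**Figure D2:**
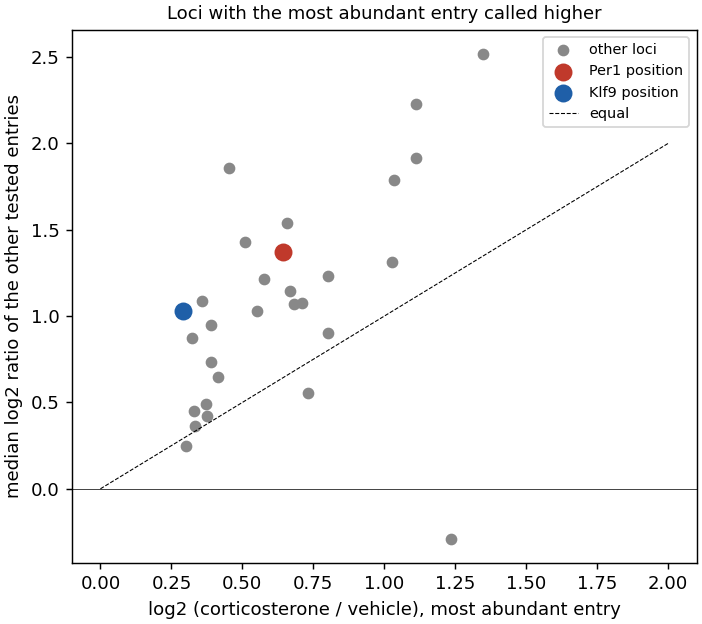
Median log2 ratio (corticosterone over vehicle) of the less abundant tested entries of a locus (vertical axis) against the log2 ratio of its most abundant entry (horizontal axis), for the 29 loci whose most abundant entry was called higher, with Per1 in red, Klf9 in blue and the dashed line marking equal ratios. Per1 lies at 0.64 and 1.37 and Klf9 at 0.29 and 1.03, both above the line, as are 26 of the 29. At many of the loci the vertical value rests on 1 entry.

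Entries of a locus that all differed in 1 direction were common in the table. Among 802 loci with 3 tested entries, as at Per1, 194 had all 3 higher with corticosterone (24.2%) and 119 had all 3 lower. Among 334 loci with 5 tested entries, as at Klf9, 39 had all 5 higher (11.7%) and 35 had all 5 lower (10.5%). Entries of 1 locus share their source, so the 8 entries are not 8 separate observations.

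The numbering of the entries sets the called and uncalled members apart. On 22 chromosomes the entry numbers run through the positions from start to end 3 times over, and the sources used here do not say what each pass holds. Both most abundant members belong to the first pass and all 6 less abundant members to the third. Entries of the third pass made up 28609 of the tested entries on these chromosomes. Their median level was 1.62 FPKM, against 5.63 FPKM in the first. In the third pass 77.9% shared their locus with another tested entry of the same pass, against 7.48% in the first. Entries of other passes at the locus were not counted in these shares. Of third-pass entries 0.192% were called, against 0.651% in the first, and their median log2 fold change was -0.007. The 6 members of the third pass had log2 fold changes of 0.84 or more.

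Set beside entries of like abundance, with a mean level within 2 times their own, all 8 members stood near the top of the distribution, as genes selected on this contrast would. At Per1, 1.29% of 9206 such entries had a log2 fold change at least as large as XLOC_006522, and 0.805% and 0.219% did so for XLOC_008525 and XLOC_008524. At Klf9 the share was 1.31% of 3522 entries for XLOC_000762 and between 0.481% and 1.20% for the other 4. Within the same numbering pass the share was smaller for the most abundant entries, 0.390% (12 of 3080) for XLOC_006522 at Per1 and 0.818% for XLOC_000762 at Klf9. For the less abundant entries of Klf9 it was larger, between 0.690% and 1.73%, and for XLOC_005649 it was 1.46% in place of 0.929%. The less abundant Per1 entries, XLOC_008525 and XLOC_008524, had 0.898% and 0.224%. Most entries with ratios this large were not called either. For the Per1 entry XLOC_008525, 198 entries of like abundance had at least its log2 fold change and 19 of them were called, and for the Klf9 entry XLOC_005651 it was 16 of 95.

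**Figure D3:**
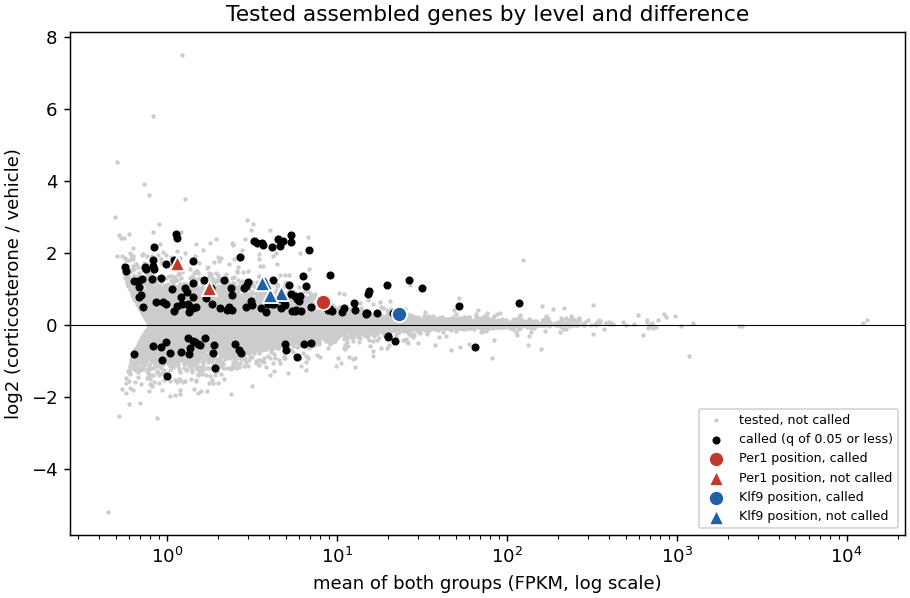
Log2 ratio of corticosterone to vehicle (vertical axis) against the mean of both groups in FPKM (horizontal axis, log scale) for the tested entries with both values above 0, in grey where not called and black where called. The Per1 (red) and Klf9 (blue) entries all lie above 0. Their circles, the called entries, lie at log2 ratios of 0.64 and 0.29 at higher levels than their triangles, the uncalled ones, at 0.84 to 1.73.

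Called entries had p-values of at most 0.00015 in the authors' deposited table. Besides the 2 called members, 3 members had an unadjusted p of 0.05 or less there, so that 5 of 8 did. Of all tested entries 2.92% did, and 1.83% did with a higher value. The positions were selected on this contrast and the 8 entries come from 2 loci, so nothing is read from this count. The deposited p-values do not go below 5e-05, a value shared by 130 entries, and both most abundant members are among them. The 2 cannot be ranked against each other or against the rest of the 130 by p.

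Among the 93 loci with a call higher and a finite fold, each represented by its most abundant called entry, Per1 sat in the middle and Klf9 at the bottom by ratio. The median ratio of these loci was 1.57. Per1 was 48 from the top. Klf9 was 93, the smallest ratio of a locus called higher in the authors' deposited table. By level with corticosterone, Klf9 was 6 and Per1 was 22 from the top of the 93. By the difference in FPKM, Klf9 was 13 and Per1 was 19. Klf9 was called at 1.22-fold, and a demand for at least 1.5 times would drop its call and keep that of Per1.

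The called entries most like the 2 genes, by distance in log2 mean level and log2 fold change among 144 called entries of other loci with a finite fold, were given by position because the table has no names. For Per1 the nearest was XLOC_019358 on chromosome 16 at 18861136 to 18894926, with 7.67 FPKM with vehicle and 10.5 FPKM with corticosterone (distance 0.24). It was followed by XLOC_032925 on chromosome 3 at 121235094 to 121343867, with 5.85 and 8.32 FPKM. The third, XLOC_026918 on chromosome 2 at 8732895 to 8747178, showed 7.61 and 10.1 FPKM. For Klf9 the nearest was XLOC_040834 on chromosome 5 at 138154095 to 138182858, with 18.9 and 23.8 FPKM (distance 0.13). The level was 15.2 and 19.1 FPKM for XLOC_019152 on chromosome 16 at 20704805 to 20729851. XLOC_033347 on chromosome 3 at 60051379 to 60105650 had 13.4 and 16.9 FPKM. The distance between Per1 and Klf9 themselves was 1.54. Their log2 fold changes differed by 0.35, so most of this distance lay in level. The entries above were picked as the nearest of 144, so their smaller distances follow from that choice and say nothing about how alike the 2 genes are. Likeness here rests on 2 pooled values per entry.

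Of the 10 tested loci within 100 kb of Per1, 4 had a higher value with corticosterone and 6 a lower one in their most abundant entry, and none was called. The locus right before Per1, XLOC_006521 at 55675466 to 55679467, had 81.0 FPKM with vehicle and 78.6 FPKM with corticosterone (q = 0.999 in the authors' deposited table). The next 2 on that side, XLOC_008523 at 55660873 to 55661367 and XLOC_008522 at 55656406 to 55657029, had log2 fold changes of -0.02 and 0.08. After Per1, the only locus within 100 kb was XLOC_006523 at 55712038 to 55735913, 14304 bp away. It had 2.88 FPKM with vehicle and 4.16 FPKM with corticosterone, 1.44-fold, with p = 0.00165 and q = 0.271 in the authors' deposited table. This was the largest log2 fold change of the 10, at 0.53. The median of the 10 was -0.02.

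Klf9 had no locus within 100 kb before it and 2 after it. A locus that begins after a gap of 52 bp, XLOC_005652 at 240935010 to 240937008, had 0.58 FPKM with vehicle and 0.89 FPKM with corticosterone, 1.53-fold, with p = 0.0187 and q = 0.999 in the authors' deposited table. Whether it belongs to the transcript of Klf9 was not tested. The next locus, 13755 bp away at 240948713 to 241046278, had 13.1 FPKM with vehicle and 13.8 FPKM with corticosterone in its most abundant entry, XLOC_001694, 1.06-fold, and 6 of its 7 tested entries had higher values.

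**Figure D4:**
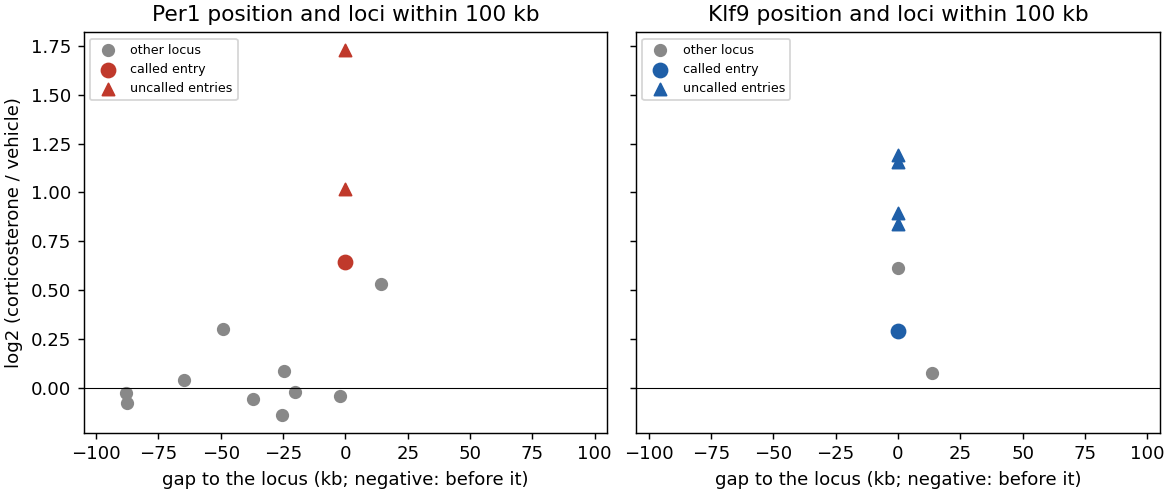
Log2 ratio of corticosterone to vehicle (vertical axis) of the Per1 and Klf9 entries, placed at 0, and of the most abundant entry of each other locus within 100 kb, placed by its gap in kb (horizontal axis, negative before the locus). Near Per1 the grey points lie between -0.14 and 0.53, below its called entry at 0.64. Near Klf9 the grey point beside 0, the locus 52 bp away, lies at 0.61, above the called entry at 0.29.

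The authors also deposited a list of 122 different transcripts. It holds 1 transcript with exactly the bounds of the Klf9 locus, with the code 999, and 0 with those of the Per1 locus. Listed transcripts that overlap a locus with other bounds were not looked for. By this exact match, Per1 is among the 34 of 94 loci with a gene called higher that have no listed transcript. Klf9 is among the 60 that have one. Both lists come from the same reads.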

How the data were processed

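Hippocampal RNA of 6 corticosterone-treated and 6 vehicle-treated rats was sequenced, and groups were taken from the sample titles. The submitters' processing notes name Cuffdiff 2.2.1.3, Cufflinks 2.2.1.0, TopHat 0.9 and Bowtie2 0.6, with no settings. Those notes name rn5, but 106 deposited entries lie on scaffolds with rn6 names, so positions were read as rn6. Per the file headers, the authors' table holds FPKM, a log2 fold change of Control over Cort (its sign was turned here), a test statistic (a score, not used), p-values and q-values. The deposited transcript list has a score code of unstated meaning.

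The members and lists were chosen with earlier results of these data known. Named entries were all members, the 3 nearest loci on each side within 100 kb, and the 3 called entries nearest in level and log2 fold change. The comparisons by numbering, by summed entries and of loci with as many entries were chosen after the values were seen. A list of 20 clock genes, one of 12 Krüppel-like factors and the cell type markers matched 0 entries by symbol and were not analysed here. No test was fitted, since each group has 1 value. A call is a deposited q of 0.05 or less. Calculations used Python 3.11.15 with pandas 2.3.3 and were tested on simulated data. Promoter sequence is RefSeq's, build GRCr8.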

Additional observations from a re-analysis of the deposited data

How the results depend on the processing

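The log2 fold changes of the most abundant entries, 0.64 at Per1 and 0.29 at Klf9, moved by less than 0.1 with pseudocounts of 0.1 and 1 FPKM and when recentred on the median of tested entries, 0.007, none of which could turn their direction. Summing FPKM over a locus gave 0.80 and 0.58, and the median over all entries gave 1.02 and 0.90, because the less abundant entries had larger ratios. The 2 calls among the 8 entries, and the 148 in the table, became 0 and 0 at a q of 0.01 or less, since the smallest q Cuffdiff gave is 0.0165; 5 of the 8 and 1253 in all had an unadjusted p of 0.05 or less. With a change of at least 1.5 times as well, 1 and 93 were left. A q of 0.10 or less gave 2 and 178, and adjustment over entries with a mean of at least 1 FPKM gave 2 and 121. The share of like entries with as large a ratio was 2.85% for Klf9 when levels within 4 times were compared, against 1.31%; for Per1 it was 0.902% and 1.87% with levels within 1.5 and 4 times, against 1.29%. Within the same numbering pass, an alternative chosen after seeing the data, it was 0.390% for Per1 and 0.818% for Klf9. No paired analysis was possible because the table gives 1 pooled value per group, and leaving out rats was not run for the same reason. Depth per rat is unknown, so what the sparse entries could show is not bounded.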
